A study of Mus musculus with 5 samples.

Results

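Leukocyte integrins are paired cell surface receptors of an alpha and a beta subunit that let blood cells and macrophages hold on to other cells and to matrix. The 9 genes described here encode integrin subunits and 2 partner molecules of that system. They were Itgal, Itgam, Itgax, Itgb2, Itga4, Itgb1, Itgb7, Icam1 and Selplg, taken by gene symbol from the 23420 genes of the deposited table. All 9 were listed, and all 9 were among the 9400 genes that passed the filter on low values. The set was selected on the knockout against control differences of this table, so those differences are a description here and carry no p for any of the 9.

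Expression was measured by polyA RNA sequencing of CD11b+ cells sorted from the forebrain of mice at postnatal day 8, in 5 libraries. The 3 libraries labelled knockout (KO-labelled below) came from Cx3cr1CreERT2/+ : Stat3fl/fl pups given tamoxifen daily from postnatal day 1 to 3. The 2 control libraries came from Stat3fl/fl littermates without Cre. A sample characteristic says untreated, but the sample labels do not say whether these pups had tamoxifen. Both groups carry floxed Stat3, and each library holds cells pooled from 2 to 4 same-genotype pups, males and females. The Cre allele is an insertion at Cx3cr1, so the knockout label stands for Cre, the altered Cx3cr1 copy and the Stat3 deletion together, in cells that express Cx3cr1. If the control pups had no tamoxifen, the label stands for that treatment as well. The sort used CD11b, the protein that Itgam encodes, so every cell in every library had been selected for 1 of the 9 gene products.

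In the beta2 family, the shared beta chain CD18 (Itgb2) pairs with 1 of 4 alpha chains: CD11a (Itgal) makes LFA-1, CD11b (Itgam) makes Mac-1, CD11c (Itgax) makes p150,95, and CD11d (Itgad) makes the last pair. LFA-1 binds ICAM-1, the product of Icam1, and carries leukocyte arrest on vessel walls, while Mac-1 on microglia also binds complement fragments and serves phagocytosis. The alpha4 chain (Itga4) pairs with beta1 (Itgb1) or beta7 (Itgb7) and binds VCAM-1, fibronectin and MAdCAM-1. Selplg encodes PSGL-1, the ligand of the selectins, and is also abundant in resting microglia.

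In GRCm38, Itgal lies on chromosome 7 from 127296260 to 127335138, Itgam from 128062640 to 128118491 and Itgax from 128129547 to 128150657, all on the plus strand, so the 3 beta2 alpha chain genes of the set share a chromosome. Itgb2 lies on chromosome 10 (77530252 to 77565708), Itga4 on chromosome 2 (79255426 to 79333123), Itgb1 on chromosome 8 (128685654 to 128733200), Itgb7 on chromosome 15 (102215995 to 102231944), Icam1 on chromosome 9 (21015985 to 21028817) and Selplg on chromosome 5 (113818536 to 113832644). RefSeq promoter sequences on GRCm38.p6 were at hand for 6 of the 9 genes and not for Itgal, Itgb2 and Selplg. The 250 bases before the RefSeq start are shown for Itgam, the sort marker, for its neighbour Itgax, and for Icam1, the only one of the 6 with the STAT motif searched. Capitals mark the motifs found.
Itgam chr7:128062390-128062639, plus strand: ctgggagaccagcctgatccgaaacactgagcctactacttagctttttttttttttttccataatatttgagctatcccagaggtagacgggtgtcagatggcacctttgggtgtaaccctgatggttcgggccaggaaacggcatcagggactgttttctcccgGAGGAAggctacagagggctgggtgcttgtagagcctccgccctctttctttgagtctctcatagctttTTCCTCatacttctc
Itgax chr7:128129300-128129549, plus strand: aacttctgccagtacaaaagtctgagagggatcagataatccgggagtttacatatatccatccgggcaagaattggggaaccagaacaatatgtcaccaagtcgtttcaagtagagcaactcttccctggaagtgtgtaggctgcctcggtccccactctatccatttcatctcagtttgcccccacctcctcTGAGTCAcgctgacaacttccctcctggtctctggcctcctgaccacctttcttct
Icam1 chr9:21015690-21015939, plus strand: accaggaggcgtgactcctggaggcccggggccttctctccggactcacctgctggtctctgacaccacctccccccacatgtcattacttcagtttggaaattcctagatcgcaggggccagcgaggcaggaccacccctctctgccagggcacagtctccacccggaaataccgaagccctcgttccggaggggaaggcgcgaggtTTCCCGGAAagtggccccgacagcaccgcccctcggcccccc
The motifs searched on both strands were TTCNNNGAA (STAT), GAGGAA (the PU.1 core), TGANTCA (AP-1) and the NF-kB motif, and no 2 matches overlapped in these windows. Icam1 held 1 STAT match, starting 42 bases before the start, a motif found in 7.02% of 32851 promoter windows of that length. For Icam1 the RefSeq start lies before the GENCODE gene start at 21015985. The first bases after the RefSeq start were not found in its GENCODE transcripts. Itgam held 2 PU.1 cores, at 84 and 15 bases before the start, and Itgb1 held 1, where 23.3% of windows had at least 1. Itgax held 1 AP-1 match at 56 bases before the start, where 6.75% had 1, and Itga4 and Itgb7 held none of the 4 motifs. A match is a stretch of letters and says nothing of binding in these cells.

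Values in the table were read as log2 expression centred per gene. A library can therefore be compared with another for 1 gene, and levels of different genes cannot be ranked. The centre is not the mean of the libraries described here, as every Cx3cr1 value given below is positive. What the values were centred on is not known. Genes with few or no reads take 1 fixed shape across libraries, which locates the lowest value a gene can take. Equal small read numbers give that shape too, so the lowest value is taken as 0 reads by inference only. Depth per library is unknown. Medians over the tested genes were -0.16 in control replicate 1, 0.08 in control replicate 2 and 0.17 to 0.24 in the KO-labelled libraries. Stat3, the targeted gene, had values of 0.96, 0.07 and 0.24 against 0.08 and 0.45, so it does not bear out the labels. Gene-level values do not separate the floxed exons from the rest. Cx3cr1, the site of the Cre insertion, stood at 3.36, 3.34 and 3.00 against 4.32 and 3.95. All 16 microglial markers, P2ry12 and Tmem119 among them, passed the filter, and none sat at its lowest value in 3 or more libraries.

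Of the 9 adhesion genes, Itgal stood farthest from the controls, its beta chain partner Itgb2 came next, and the sort marker Itgam stood at about the same value in both groups. Itgal stood at 2.09, 1.51 and 1.80 in KO-labelled libraries, against -0.28 and -0.32 in the controls. Every KO-labelled library was above both controls, with 1.79 log2 units between the nearest values of the groups. Group means of 1.80 ± 0.29 (SD, n = 3) and -0.30 ± 0.024 (SD, n = 2) gave 2.10 (SE 0.38) as the log2 difference. Across the 9400 tested genes the median log2 difference was 0.14, which leaves 1.97 for Itgal relative to it, and 7 tested genes had a larger difference.

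Both Itgal controls sat where few or no reads would put them. Control replicate 1 was above replicate 2 by 0.034, and at 0 reads the same order holds with a gap of up to 0.113. Among tested genes, 1756 had control replicate 1 above replicate 2 within that gap and 231 had the opposite order. The spread over libraries that 0 reads would imply from this gap, divided by how far the lowest value lies below 0, was 0.12 for Itgal, inside the range of 0.061 to 0.245 (5th to 95th percentile) of 1890 genes with 3 libraries at their lowest value. The log2 difference of 2.10 depends on where the table places genes with few or no reads. It is neither a bound nor read as a fold change. None of the 6599 different stretches of 40 bases in Itgal transcripts, the length of the reads, occurred in transcripts of another gene, and no annotated gene overlaps it.

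Itgb2, which codes for the beta chain that Itgal, Itgam and Itgax all need, stood at 2.79, 1.92 and 2.39 in KO-labelled libraries, against 0.09 and 1.74 in the controls. The groups did not overlap, but control replicate 2 lay only 0.18 below the nearest KO-labelled library. Group means of 2.37 ± 0.43 (SD, n = 3) and 0.91 ± 1.17 (SD, n = 2) gave 1.45 (SE 0.54). The size depended on which control was used, as leaving out control replicate 1 gave 0.63 and control replicate 2 gave 2.28.

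Itgam stood at 3.26, 3.29 and 2.68 in KO-labelled libraries, against 3.18 and 3.21 in the controls. Knockout replicate 3 was the lowest of the 5, and the other 4 libraries lay within a narrow band. The log2 difference was -0.12 with SE 0.39, and it turned to 0.08 without knockout replicate 3 and to 0.03 with quantile normalization. Of the stretches of 40 bases in Itgam transcripts, 66.8% also occur in Gm49368, an overlapping gene model on the same strand, so the Itgam value depends on how the unstated counter treated such reads, whose effect was not tested.

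Itgax was at its lowest value in both controls (-0.12 and -0.14) and in knockout replicate 3 (-0.13), and above it in knockout replicates 1 and 2 (0.54 and 0.97). The groups overlapped, and the log2 difference was 0.59 with SE 0.43. Itgad, the fourth alpha chain gene and the neighbour of Itgax, had the same 3 libraries at its lowest value (-0.33, -0.31 and -0.34) and stood at 0.74 and 0.73 in knockout replicates 1 and 2. Of the stretches of 40 bases in Itgax transcripts, 9.29% also occur in Itgad, so reads can be split between this pair and both values are uncertain.

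**Figure D1:**
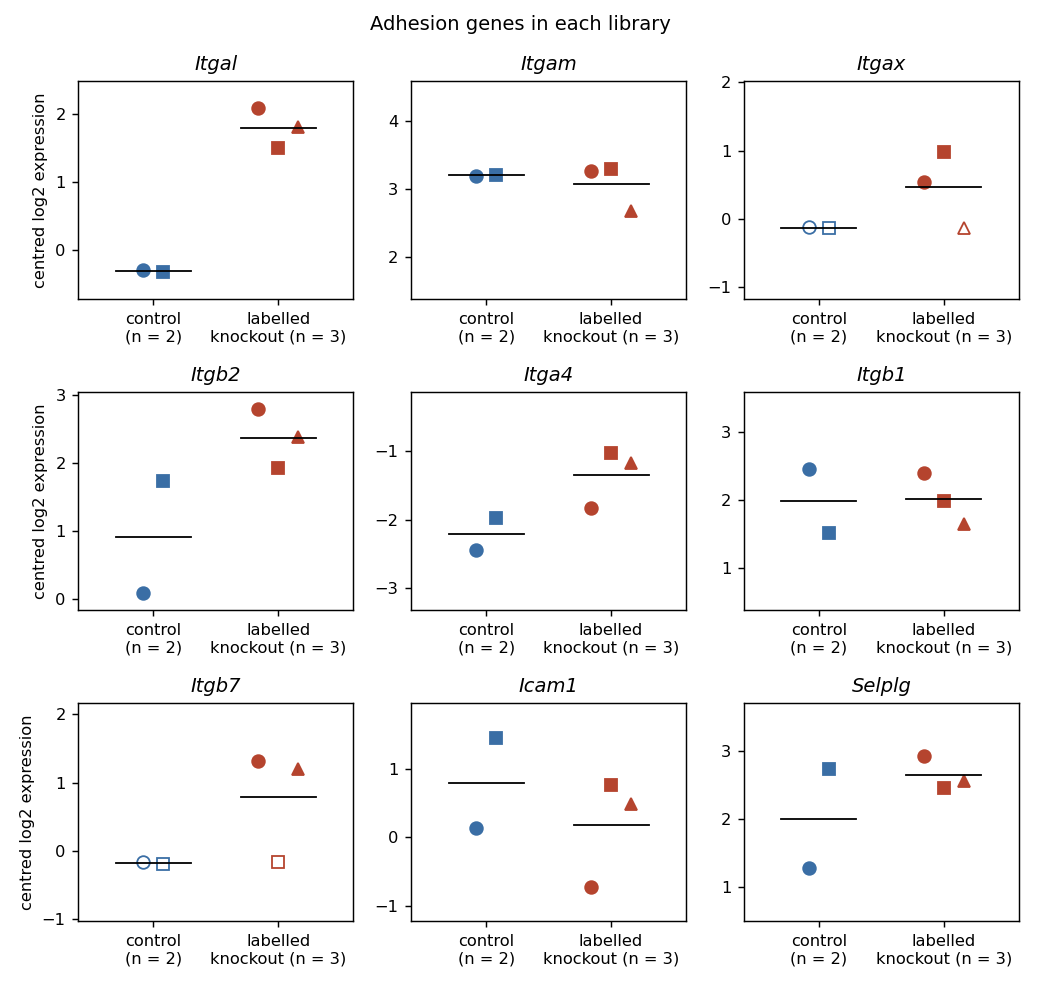
Centred log2 expression of the 9 genes in each library (circle replicate 1, square replicate 2, triangle replicate 3; blue control, red labelled knockout; bar, group mean). Open symbols mark libraries at the value read as 0 reads, identified only where 3 or more libraries shared it, so the Itgal controls are filled. Each panel spans the same number of log2 units around its own centre. The 3 Itgal values of the KO-labelled libraries, 1.51 to 2.09, sit above controls at -0.28 and -0.32, while the Itgam values run from 2.68 to 3.29 in all 5.

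The groups did not overlap in Itgal minus Itgam or in Itgal minus Itgax, and they overlapped in Itgal minus Itgb2. The Itgal value minus the Itgam value was -1.18, -1.78 and -0.87 in the KO-labelled libraries and -3.47 and -3.53 in the controls, with no overlap. Minus Itgax it was 1.54, 0.53 and 1.94 against -0.16 and -0.18, again with no overlap. Minus Itgb2 it was -0.70, -0.42 and -0.58 against -0.37 and -2.06, and control replicate 1 lay above all 3 KO-labelled libraries. The groups therefore overlapped in this last comparison. Itgal was selected on the knockout against control differences, Itgam was about level, and Itgax was at its lowest value in both controls. The gaps from Itgam and Itgax therefore largely restate the Itgal difference. In the controls, the Itgal minus Itgax value may be the distance between lowest values. The share of tested genes with such gaps was not counted. The log2 difference of Itgal exceeded the median difference of Itgam, Itgax and Itgb2 by 1.51, and by 1.21 to 1.91 over the alternatives run. That median difference was the 0.59 of Itgax, which was at its lowest value in both controls and knockout replicate 3. In each library the middle value of those 3 genes was that of Itgb2, so the value of Itgal minus their median equals that minus Itgb2. Taken per library in this way, the group difference was 0.65 and the groups overlapped. Which gene is in the middle rests on the unknown centring, so this value repeats the Itgb2 comparison and does not summarise the 3 genes.

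**Figure D2:**
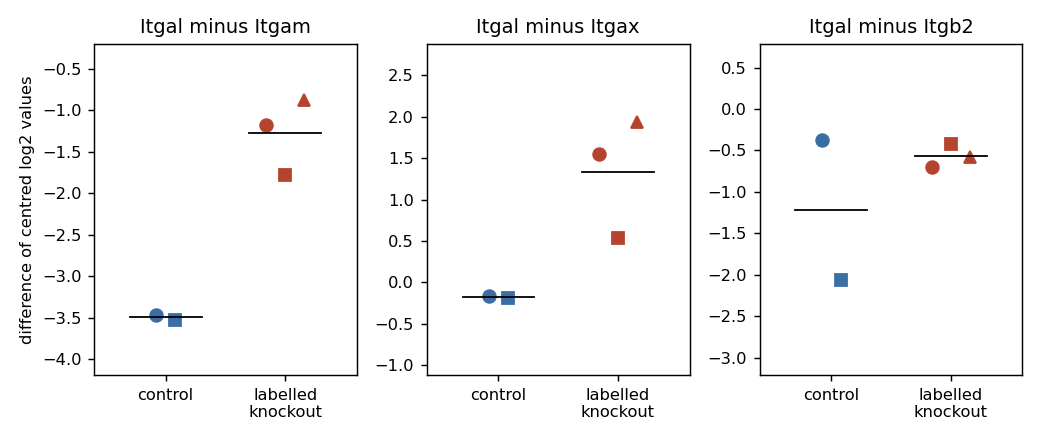
Value of Itgal minus that of Itgam, Itgax or Itgb2 in each library, as differences of centred log2 values (circle replicate 1, square replicate 2, triangle replicate 3; blue control, red labelled knockout; bar, group mean). The groups are apart in the Itgam and Itgax panels, and control replicate 1, at -0.37, lies above the KO-labelled libraries in the Itgb2 panel.

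Among the alpha4 integrin genes, Itga4 was higher in every KO-labelled library than in both controls, and its beta partners were not. Itga4 stood at -1.83, -1.02 and -1.17 against -2.44 and -1.98. The nearest values of the groups were 0.15 apart, and the log2 difference was 0.87 with SE 0.41. The Itga4 gene overlaps Cerkl on the opposite strand and shares 7.48% of its stretches of 40 bases with it. The library kit does not mark strand, so reads of the pair cannot be told apart there.

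Itgb1, the widely expressed beta chain, stood at 2.40, 1.99 and 1.65 against 2.45 and 1.51. The controls enclosed all 3 KO-labelled libraries, and the log2 difference was 0.03 with SE 0.44. Its sign depended on single libraries and on scaling: leaving out control replicate 1 gave 0.50, control replicate 2 gave -0.44 and knockout replicate 1 gave -0.16, and centring each library on its median gave -0.22. Itgb7, the beta chain of gut-homing lymphocytes, was at its lowest value in both controls (-0.17 and -0.19) and in knockout replicate 2 (-0.17). Knockout replicates 1 and 3 stood above it at 1.32 and 1.20, and the log2 difference was 0.96 with SE 0.51. The libraries in which Itgb7 and Itgax were detected thus differed, replicates 1 and 3 for the first and replicates 1 and 2 for the second.

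The 2 partner molecules overlapped between the groups. Icam1, the ligand of LFA-1 and Mac-1, stood at -0.72, 0.76 and 0.49 in KO-labelled libraries, against 0.14 and 1.46 in the controls. Knockout replicate 1 was the lowest and control replicate 2 the highest, and the log2 difference was -0.62 with SE 0.57. Leaving out control replicate 1 gave -1.28, control replicate 2 gave 0.03, and knockout replicate 1 gave -0.17. Icam1 is the gene with the STAT motif shown above, and it shares 11% of its stretches of 40 bases with the antisense gene Gm47079. Selplg stood at 2.92, 2.46 and 2.55 against 1.27 and 2.73. Control replicate 1 alone was low, and the log2 difference of 0.64 (SE 0.49) became -0.09 without it and 1.37 without control replicate 2.

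Over the whole set, 7 of the 9 differences were above 0 and 2 below, with a median of 0.64, while 60% of all tested genes were above 0. Groups did not overlap for 3 of the 9, Itgal, Itgb2 and Itga4, all with the KO-labelled libraries above, a pattern that 17.2% of tested genes had. The opposite pattern, with every KO-labelled library below both controls, held for 0 of the 9 and for 7.06% of tested genes. Itgax and Itgb7 had both controls at the lowest value and passed the filter only through KO-labelled libraries, which fixed their sign. The same holds for Itgal if its controls, which sat where few or no reads would put them, were at the lowest value. Because the genes were also chosen with this contrast in view, nothing is read from these counts. In Itgb2, Icam1 and Selplg, control replicate 1 was lower than control replicate 2 by more than 1 log2 unit, a gap larger than the group difference of the same gene.

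**Figure D3:**
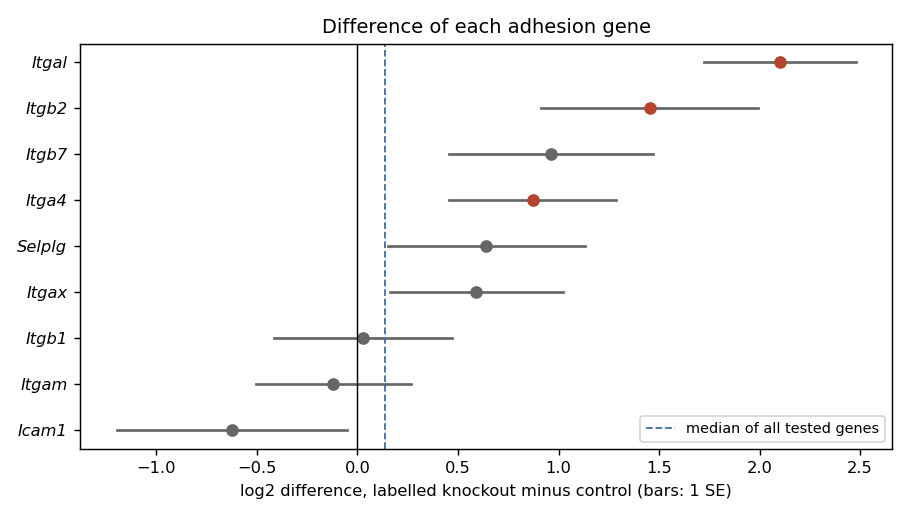
Log2 difference of each gene, KO-labelled libraries minus controls, with 1 SE from limma to each side; red marks the 3 genes whose groups do not overlap and the dashed line the median of all tested genes, 0.14. Itgal is highest at 2.10 and Icam1 lowest at -0.62, with Itgam at -0.12 and Itgb1 at 0.03.

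**Figure D4:**
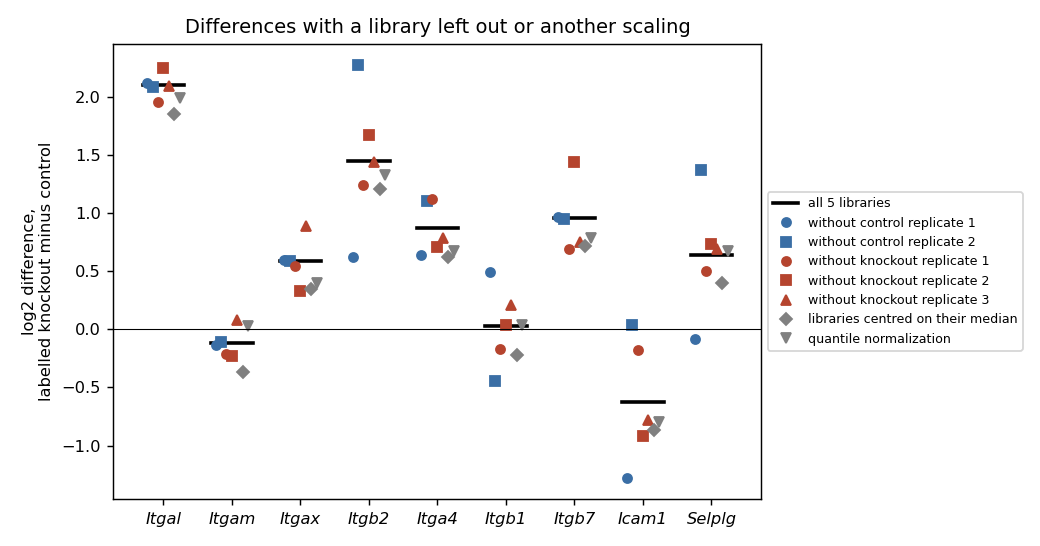
Log2 difference of each gene with all 5 libraries (bar) and with 1 library left out or another scaling (symbols, as in the legend). The Itgal values run from 1.85 to 2.25, whereas those of Itgb2, Icam1 and Selplg spread with the control that is left out, from 0.63 to 2.28 for Itgb2.

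None of the genes named here for a pattern over the 5 libraries like that of Itgal is an integrin gene. By the root mean square distance of values after each gene's own mean was taken off, the nearest tested genes included Foxo4 (0.10), Lrrc3 (0.14), Rgs1 (0.15) and Ifit2 (0.19), in log2 units. Foxo4 encodes a forkhead transcription factor, Rgs1 a regulator of G protein signalling and Ifit2 an interferon-induced protein. In these 4, control replicate 1 was slightly above control replicate 2 and both were far below the other libraries, as for Itgal. They were chosen for nearness to Itgal over the same libraries, so this likeness follows from the choice. The same distance was 0.63 for Itgb2, 0.67 for Itgb7 and 1.13 for Itgam, and 3.87%, 5.21% and 59.8% of the genes compared were nearer to Itgal than these.

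The rest of the adhesion system was read from a list of 90 genes that holds none of the 9, of which 57 were tested. Of these, 0 rose and 0 fell at a limma adjusted p under 0.05, as for 0% of all tested genes in each direction. At an unadjusted p under 0.05, 6 were higher and 2 lower, against 5.6% and 2.11% of all tested genes. In 13 of the 57 all KO-labelled values exceeded both controls, beside 17.2% of all tested genes, and in 4 all were below, beside 7.06%. The filter fixed the sign of at least 8 of the 57, which had both controls at the lowest value. It also fixed the sign of Itgb3, which had all KO-labelled libraries at the lowest value. Genes with only the controls there were not identified. Controls of Itga5, Ptk2b, Cd44 and Jam2, named below, lay within 0.113 of each other in the order that 0 reads give. Counts of differences above 0 in the 4 groups below are therefore a description (60% of all tested genes were above 0). The median log2 difference was 0.41, beside 0.14 for all tested genes, and 0.17 with libraries centred on their median, which moves the median of all tested genes to -0.11. It was 0.18 without control replicate 1.

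Among other integrin subunits, 9 of 19 were tested and 6 of the 9 had a difference above 0. Itga5, the alpha chain of the fibronectin receptor, stood at -0.30, 0.37 and -0.03 against -0.85 and -0.92, a log2 difference of 0.90 (SE 0.38, limma adjusted p = 0.640). Itgae, the alpha chain that pairs with beta7, had a difference of 0.92 (SE 0.47, limma adjusted p = 0.703). Itgb3, the beta chain that pairs with alphaV, stood lower, at its lowest value in all 3 KO-labelled libraries (0.41, 0.41 and 0.34) and at 1.66 and 1.06 in the controls, a difference of -0.97 (limma adjusted p = 0.626). It passed the filter only through the controls, which fixed its sign.

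Of the genes that switch integrins on or carry their signals, 31 of 37 were tested and 19 of the 31 had a difference above 0. Skap2, an adaptor of integrin signalling in myeloid cells, stood at 1.19, 2.12 and 1.07 against -0.33 and 0.29, a difference of 1.47 (SE 0.46, limma adjusted p = 0.615). Ptk2b, the focal adhesion kinase relative PYK2, had a difference of 1.20 (SE 0.41, limma adjusted p = 0.615). Cyth1, cytohesin-1, which binds the CD18 tail, stood lower in every KO-labelled library, at -0.66, -1.16 and 0.07 against 0.40 and 0.86, with a difference of -1.21 (SE 0.46, limma adjusted p = 0.623).

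Of the ligands and junction proteins, 11 of 20 were tested and 9 of the 11 had a difference above 0. Cd44, the hyaluronan receptor, stood at 1.67, 0.87 and 0.35 against -0.25 and -0.28 (difference 1.23, limma adjusted p = 0.618). Thbs1, thrombospondin-1, had a difference of 1.90 with SE 1.00, and its value of 4.46 in knockout replicate 1 was far above the 1.13 and 1.00 of the other KO-labelled libraries. Jam2, a junction protein that can bind alpha4 beta1, had a difference of 0.64. In the selectin pathway 6 of 14 genes were tested and all 6 had a difference above 0. Gcnt1, an enzyme that builds the sugar PSGL-1 needs for selectin binding, stood at 1.77, 2.09 and 0.83 against 0.45 and -0.32 (difference 1.50, limma adjusted p = 0.615). St3gal4, a sialyltransferase, and Tpst1, the tyrosine sulfotransferase, act on the same ligand and had differences of 0.71 and 0.69, with both controls and knockout replicate 3 at the lowest value in each. None of these genes passed.

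**Figure D5:**
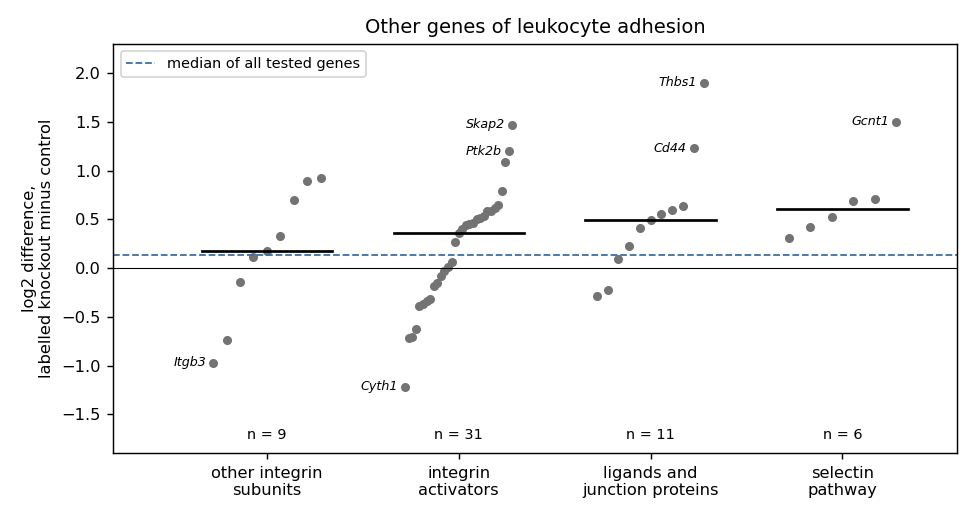
Log2 differences, KO-labelled libraries minus controls, of the 57 tested genes of the adhesion list in 4 groups; each point is a gene, bars are group medians and the dashed line is the median of all tested genes, 0.14. Points lie on both sides of 0 among integrin subunits and activators, while the 6 selectin pathway genes lie above it, 2 of them with a sign fixed by the filter.

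Blood myeloid cells also carry beta2 integrins, and their markers were read beside Itgal. A marker with both controls at its lowest value passed the filter only through KO-labelled libraries, so its sign was fixed, and the counts and sums over tested markers support nothing. Of 8 tested neutrophil markers 7 had a difference above 0, beside 60% of all tested genes. At least 3 of the 7 had their sign fixed in this way. Lowest values were identified only where 3 or more libraries shared them, so markers with just the controls there are missed. The list had a summed value of 5.76 to 10.4 in the KO-labelled libraries and 0.997 to 1.77 in the controls. S100a9 stood at 2.29, 1.73 and 2.31 against -0.33 and -0.37, and Ltf, lactoferrin, at 0.98, 0.97 and 1.66 against -0.20 and 0.43. Elane was at 0 in all 5 libraries, Camp, Lcn2, Cxcr2 and Mpo were at their lowest value in 4, and Ly6g was not analysed here. Of 9 tested monocyte markers, Itga4 among them, 8 had a difference above 0, at least 1 of them with its sign fixed. The monocyte list had sums of 1.71 to 6.59 against -3.96 to 0.51. Without Itga4 the count was 7 of 8, with sums of 2.87 to 8.42 against -1.52 to 2.49. Ccr2 stood at 0.98, 0.97 and 0.47 against -0.14 and -0.16, and Treml4 at 1.02, 0.57 and 0.93 against -0.12 and -0.13, while Ly6c2 and Cd177 were at 0 in all 5 libraries and Vcan was at its lowest value in 4. The controls of S100a9, Ccr2 and Treml4 lay close together in the order that 0 reads give, as for Itgal. Whether blood myeloid cells contribute to the Itgal, Itgb2 or Itga4 values was not tested. In bulk samples, more cells of a type and more RNA per cell cannot be told apart.

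Of border macrophage markers 6 of 8 had a difference above 0, beside 60% of all tested genes. At least 2 of the 6 had their sign fixed by the filter. The tested border macrophage markers had sums of 9.01 to 10.5 against 3.90 to 6.73. Pf4 (difference 0.96) and Cd163 (difference 1.08) had the smallest p. The Pf4 controls, at -0.12 and -0.13, also had the order that 0 reads give. Lymphocytes carry much LFA-1 and alpha4 integrin. Of 16 lymphocyte markers, 9 were at their lowest value in all 5 libraries and 6 more in 4 of them. Cd3e, Cd3d, Cd8a and Nkg7 were among the 9. The only tested lymphocyte marker, Cd79b, had a difference of -0.33. Of microglial markers 8 of 16 had a difference above 0, with sums of 41.3 to 45.1 against 42.5 to 45.5. Siglech (difference -0.92) and Cx3cr1 (-0.90), the site of the Cre insertion, had the smallest p. Endothelial markers (1 of 3 above 0, Pecam1 at 0.60 and Kdr at -0.71), neuronal markers (2 of 3, Stmn2 at 0.51 and Tubb3 at 0.07) and astrocyte markers (2 of 5, Aqp4 at -0.64 and Gja1 at 0.35) had few tested members. Their summed values ran from -0.001 to 0.82 against -0.23 to 1.64, from -6.08 to -4.53 against -6.36 to -5.52 and from -7.90 to -5.97 against -7.73 to -5.48. Stmn2 and Gja1 had both controls at the lowest value, so the filter fixed the sign of each. No member of any of these lists passed at a limma adjusted p under 0.05.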

How the data were processed

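PolyA RNA from 5 pools of sorted cells was sequenced with 40 bp reads, and p-values measure the spread between pools. Per the submitters' processing notes, TopHat2 2.0.13 and GRCm38/mm10 were used, and DESeq2 is named without a role. The sources used here name neither the read counter nor the annotation. The authors deposited 1 log2 value per gene and library, a scale inferred from the values (-4.12 to 7.69).

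Genes at the value read as 0 reads in 4 or 5 libraries (tolerance 2% of the span, span at most 0.1157) and 27 names turned into dates were left out. The remaining 9400 were fitted with limma 3.58.1 in R 4.3.3 (group as the only term, eBayes), with Benjamini-Hochberg adjustment. Groups and replicate numbers came from sample titles. Alternatives were no filter, a stricter filter, 2 scalings, a trended robust prior, leaving out each library and a replicate block. Limma was tested on simulated data. Positions and transcripts are GENCODE vM21.

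The 9 genes, lists and tests were chosen with earlier results of these data known. Named genes were the 9, the 3 adhesion genes per group and 2 markers per list with the smallest p, the 5 nearest to Itgal (clone and Riken names left out), Stat3 and Cx3cr1. Of the 5, 1 is not reported here. Marker lists were microglia, neutrophils, monocytes, border macrophages, lymphocytes, endothelial cells, neurons and astrocytes.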

Additional observations from a re-analysis of the deposited data

How the results depend on the processing

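With limma, 0 genes passed with the filter on low values under each of the other alternatives run. Without that filter 1 gene (Sord, lower) passed among 16423. At an unadjusted p under 0.05 the counts were 526 higher and 198 lower, while median centring gave 204 and 425, quantile normalization 302 and 301, and leaving out control replicate 2 gave 685 and 445. The median of the adhesion list, 0.41, was 0.172 without the filter, 0.320 with the stricter filter, 0.166 after median centring, 0.273 after quantile normalization, and 0.183 to 0.552 with 1 library left out. Itgal, Itgax, Itgb2, Itga4 and Itgb7 kept the sign of their difference under every alternative in which they were tested (Itgax and Itgb7 were not tested under the stricter filter). The differences of Itgam, Itgb1, Icam1 and Selplg changed sign in at least 1. For Itgax, leaving out knockout replicate 2 gave 0.33 and replicate 3 gave 0.89; for Itgb7, leaving out knockout replicate 1 gave 0.69 and replicate 2 gave 1.44. Replicate numbers are shared by the groups, but deviations of same-numbered libraries correlated at 0.0023 and -0.067 over genes, so the numbers are not taken as pairs. With the replicate block, 0 genes passed and the differences were those without knockout replicate 3, such as 0.08 for Itgam. The causes of these shifts were not tested. Unknown depth and the small number of libraries limit precision, most for genes near their lowest value such as Itgax and Itgb7.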

Other observations

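The genes around Itgal on chromosome 7 were read as well, chosen after the Itgal values were known. Within 200 kb of Itgal, 36 other genes are annotated and 11 were tested. Their log2 differences ran from -0.33 to 1.02 with a median of 0.15, close to the 0.14 of all tested genes. The highest was Spn, which encodes CD43, another sialoglycoprotein of the leukocyte surface. Spn stood at 1.58, 0.98 and 0.89 in KO-labelled libraries, against -0.19 and 0.44 in the controls, and is also on the monocyte list. All KO-labelled values exceeded both controls in 2 of the 11, Spn and Zfp764, beside 17.2% of all tested genes, but the Zfp764 values of knockout replicate 1 and control replicate 1 were both -0.21 when rounded. Zfp768, the nearest tested gene at the 3' side of Itgal, had a difference of 0.15.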
